A study of Mus musculus with 6 samples.

Results

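The CCT chaperonin, also called TRiC, is the cytosolic folding machine of eukaryotic cells. Its subunit genes were followed in fully grown mouse oocytes with and without NAT10, the enzyme that writes N4-acetylcytidine into RNA. The set was chosen by name, as the rows for Tcp1, Cct2, Cct3, Cct4, Cct5, Cct6a, Cct6b, Cct7 and Cct8, which are 9 of the 55291 genes in the table. All 9 were among the 18353 genes that passed the filter on low counts. The family was picked with the difference between the genotypes in view. Differences between genotypes in these 9 genes are therefore given as description, with no p-value.

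The chaperonin is a double ring in which related but distinct subunits each hold a fixed place. Actin and tubulin reach their native form inside it, and so do many proteins built from WD40 repeats, among them the activators of the anaphase-promoting complex. Prefoldin hands unfolded chains to it, and phosducin-like proteins work with it as cofactors. In the oocyte, its clients include the tubulin of the meiotic spindle and the actin of the cortex.

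Nat10 cKO libraries came from mature females in which Gdf9-cre, a recombinase driven from an oocyte promoter, acts on a conditional Nat10 allele. WT libraries came from mature females labelled WT, with no further allele given. Each group had 3 libraries, each made from 10 oocytes by Smart-seq2, which copies polyadenylated RNA from an oligo-dT primer. For each library, 0.2 µl of ERCC spike-in RNA, an added outside standard, is given at a 1000-fold dilution. Females of both groups had received PMSG, a gonadotropin that drives follicle growth. The start of the collection window is given as 36 h in the sample labels and 32 h in the series text, and its end as 48 h in both. The labels give no age in days or weeks and no strain, and they do not say whether pools came from separate females, so p-values measure the spread between these libraries only.

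The reads counted per library came to 74.1 M, 47.4 M and 71.0 M in Nat10 cKO replicates 1 to 3 and 33.5 M, 34.1 M and 65.5 M in WT replicates 1 to 3. Levels are TMM-scaled CPM, a scaling which sets each library against the bulk of its own mRNA. Nat10 itself was at 5.72, 5.97 and 6.32 CPM in the Nat10 cKO libraries and at 42.1, 50.1 and 39.4 CPM in the WT libraries, a log2 change of -2.67 (SE 0.129, limma adjusted p = 4.28e-08). Since each library is a pool, fewer cells of a type and less RNA per cell cannot be told apart. The 12 oocyte markers summed to between 29213 and 34492 CPM in Nat10 cKO libraries and between 24864 and 25615 CPM in WT libraries. The 14 granulosa markers summed to 395 to 439 CPM in Nat10 cKO libraries and 418 to 470 CPM in WT libraries. Those of theca, stroma and endothelium summed to 127 to 146 CPM in Nat10 cKO libraries and 132 to 139 CPM in WT libraries. The 10 blood and immune markers summed to 41.2 to 44.5 CPM in Nat10 cKO libraries and 51.1 to 55.8 CPM in WT libraries, and C1qc among them had no read in any library. C1qb made up most of that sum, at 32.1 ± 0.521 CPM in Nat10 cKO and 44.0 ± 2.87 CPM in WT libraries. Of the markers tested, 9 of 12 for the oocyte rose and 3 fell, 1 of 12 for granulosa cells rose and 3 fell, 1 of 8 for theca, stroma and endothelium rose and 2 fell, and 1 of 4 for blood and immune cells fell. Of all 18353 tested genes, 17.4% rose and 17.6% fell. The part of these cells in the values below was not tested.

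Cct6a encodes the zeta subunit and had the widest gap between the genotypes in the family. On GRCm38 (mm10), GENCODE M21 places it at chr5:129786998-129846371 on the plus strand, head to head with Psph on the minus strand, which encodes phosphoserine phosphatase, the last enzyme of serine synthesis. Exons of the pair overlap over 452 bases at chr5:129786998-129787449, which is 12.5% of the Cct6a exon bases. RefSeq starts Cct6a at base 129787356 and Psph at base 129787253 of chromosome 5. The 102 bases between these starts, chr5:129787254-129787355 on the plus strand, are read 5′ to 3′ from RefSeq (GRCm38.p6). By these starts they lie upstream of both genes, but they fall within the exon overlap of GENCODE M21. They are shown because, under GENCODE M21, reads that fall here cannot be assigned to either gene without strand. Capitals mark CCAAT and GGGCGG, searched on both strands:

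Cct6a and Psph, between the starts: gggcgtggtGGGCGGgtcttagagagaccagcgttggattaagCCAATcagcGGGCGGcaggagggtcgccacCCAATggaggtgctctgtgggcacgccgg

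The stretch holds 2 matches to CCAAT and 2 to GGGCGG, none overlapping. RefSeq promoter windows of 300 bases matched 8 of the 9 subunits, Tcp1, Cct2, Cct3, Cct5, Cct6a, Cct6b, Cct7 and Cct8, and not Cct4. Cct2 and Cct5 had 2 windows each, so subunits are named by gene below, while the shares count single windows. CCAAT occurred in the windows of Tcp1, Cct3, Cct6a, Cct6b and Cct7, and in 37.4% of all 32851 windows. GGGCGG occurred in a window of each matched subunit except Cct6b, and in 35.7% of all windows. CCGGAAG, letters bound by ETS factors, occurred in a window of Tcp1, of Cct2, of Cct6b and of Cct8, and in 8.86% of all windows. The paired half-sites GAANNTTC or TTCNNGAA, letters bound by heat shock factors, occurred in a window of Cct2, of Cct5 and of Cct6a, and in 15.1% of all windows. These matches describe letters and not binding.

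A second feature of the Cct6a locus bears on its count. GENCODE M21 types the gene as a processed transcript, with 0 of its 7 transcripts typed as protein coding. RefSeq types the gene on the same assembly as protein coding. A stretch of 50108 bases without any exon, chr5:129794705-129844812, separates the downstream exons from the rest. No source used here names the annotation used for counting, and the effect of this gap on the counts was not tested.

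Cct6a was at 52.4, 69.2 and 41.1 CPM in Nat10 cKO replicates 1 to 3, against 5.81, 18.9 and 11.6 CPM in WT replicates 1 to 3. Every Nat10 cKO library lay above every WT library. In CPM, the gap between the groups was wider than the distance between any pair of WT libraries. It was narrower than the distance between Nat10 cKO replicates 2 and 3. As a ratio the gap was also narrower than the 3.25-fold between WT replicates 2 and 1. The Cct6a levels rest on 3919, 3292 and 2967 reads in the Nat10 cKO libraries and on 188, 658 and 746 reads in the WT libraries. The log2 change, on the log2(CPM + 1) scale, was 2.18 (SE 0.346), or 4.52-fold, which placed Cct6a 11th of 18353 tested genes from the top. It was 1.77 without WT replicate 1, the library with the lowest value, and 2.55 without WT replicate 2, the WT library with the highest.

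Psph was at 7.36, 7.42 and 10.3 CPM in Nat10 cKO libraries and at 3.90, 7.30 and 4.54 CPM in WT libraries. Psph rose, with a log2 change of 0.61 (SE 0.201) and an adjusted p of 0.0315 from limma, and WT replicate 2 came close to the lowest Nat10 cKO value. The call was lost on the deposited scale, with no filter, and without WT replicate 1, WT replicate 3 or Nat10 cKO replicate 3 (adjusted p between 0.0610 and 0.125). For each 100 Cct6a reads, there were 14.0, 10.7 and 25.2 Psph reads in Nat10 cKO libraries and 67.0, 38.6 and 39.1 in WT libraries. Snora15, a small nucleolar RNA gene whose annotation overlaps a Cct6a exon, was listed at 0 in every library. Since the treatment of shared reads is not known, this 0 sets no upper limit.

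Cct4, the delta subunit, stood next to Cct6a in the size of its difference. It was at 118, 145 and 97.1 CPM in Nat10 cKO libraries, against 43.1, 90.1 and 66.9 CPM in WT libraries. The groups did not overlap, but Nat10 cKO replicate 3 and WT replicate 2 lay close together. The log2 change was 0.88 (SE 0.235). It was 0.60 without WT replicate 1.

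Tcp1, which gave the complex its name and encodes the alpha subunit, was at 305, 310 and 271 CPM in Nat10 cKO libraries, against 206, 197 and 203 CPM in WT libraries. The WT libraries were within 1.04-fold of each other, and all Nat10 cKO libraries were above them. The log2 change was 0.54 (SE 0.0854). Cct7, the eta subunit, was at 81.6, 90.5 and 81.4 CPM in Nat10 cKO libraries and at 53.1, 71.7 and 60.2 CPM in WT libraries. Its groups were separate too, with a log2 change of 0.46 (SE 0.113). Cct8, the theta subunit, was at 431, 441 and 402 CPM in Nat10 cKO libraries and at 349, 306 and 332 CPM in WT libraries, a log2 change of 0.37 (SE 0.0849) with no overlap.

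The remaining subunits of the ring differed less. Cct2, the beta subunit, was at 281, 286 and 267 CPM in Nat10 cKO libraries and at 246, 251 and 251 CPM in WT libraries (log2 change 0.16, SE 0.0794). Cct3, the gamma subunit, was at 386, 434 and 373 CPM in Nat10 cKO libraries and at 371, 364 and 347 CPM in WT libraries (log2 change 0.14, SE 0.0857). Both were higher in every Nat10 cKO library than in any WT library, by a narrow margin for Cct3. Cct5, the epsilon subunit and the most abundant of the family, was at 573, 545 and 570 CPM in Nat10 cKO libraries and at 617, 584 and 562 CPM in WT libraries. Its groups overlapped, and its log2 change of -0.06 (SE 0.0789) turned to 0.30 on the deposited scale.

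Cct6b, a second zeta subunit gene known for its expression in testis, was nearly silent. It was at 0.187, 0.378 and 0.304 CPM in Nat10 cKO libraries and at 0.309, 0.460 and 0.560 CPM in WT libraries, from 14, 18 and 22 reads and 10, 16 and 36 reads in the same libraries. The groups overlapped, and at this depth a difference could not be read from so few reads.

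**Figure D1:**
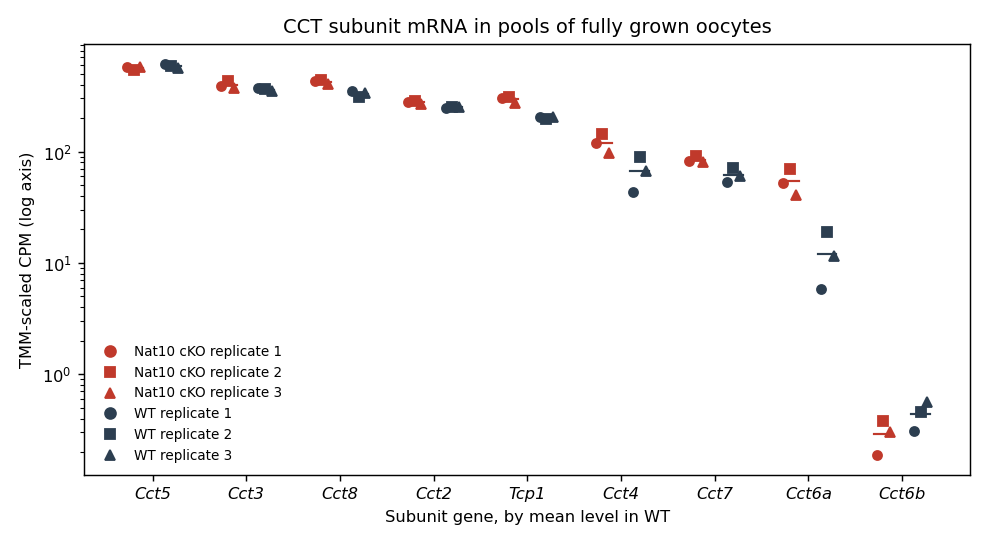
TMM-scaled CPM (log axis) of each CCT subunit gene in the 6 libraries; points are libraries, with Nat10 cKO on the left and WT on the right of each gene, and horizontal lines are group means. Cct6a was at 41.1 to 69.2 CPM in Nat10 cKO libraries and 5.81 to 18.9 CPM in WT libraries, while the Cct5 libraries of both genotypes lay between 545 and 617 CPM.

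In the fit across all genes, 5 of the 9 subunits (Tcp1, Cct4, Cct6a, Cct7 and Cct8) lay past the limma threshold of an adjusted p of 0.05, all higher in Nat10 cKO oocytes. Among all 18353 tested genes, 17.4% were called higher and 17.6% lower (3190 and 3232 genes, against 1207 and 255 on the deposited scale). All Nat10 cKO libraries were above all WT libraries for 7 subunits, as for 24.1% of tested genes, with 24.2% separated the other way. The median log2 change was 0.37 over the 9 subunits and 0.00096 over all tested genes. Since the choice of the family used this contrast, nothing is read from these counts. The call of Cct4 was lost when any one Nat10 cKO library was left out.

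The deposited values, in which each library carries the authors' own factor, gave a second scale. On it the median of all tested genes was shifted by 0.24 on the log2(value + 1) scale. The shift depended on level: Tcp1 moved from 0.54 to 0.90 and Cct5 from -0.06 to 0.30, but Cct6b from -0.16 to -0.10. The changes given next are relative to the median shift of 0.24, and so are not directly comparable with those under TMM scaling. They were 2.25 for Cct6a, 0.99 for Cct4, 0.66 for Tcp1, 0.57 for Cct7, 0.48 for Cct8, 0.27 for Cct2, 0.26 for Cct3, 0.06 for Cct5 and -0.34 for Cct6b. The order of the subunits by size of change was the one seen with TMM scaling. Since these values are the same reads times 1 factor per library, this order was largely fixed beforehand and is no separate evidence. Only Cct4 and Cct6a lay past the threshold on this scale.

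**Figure D2:**
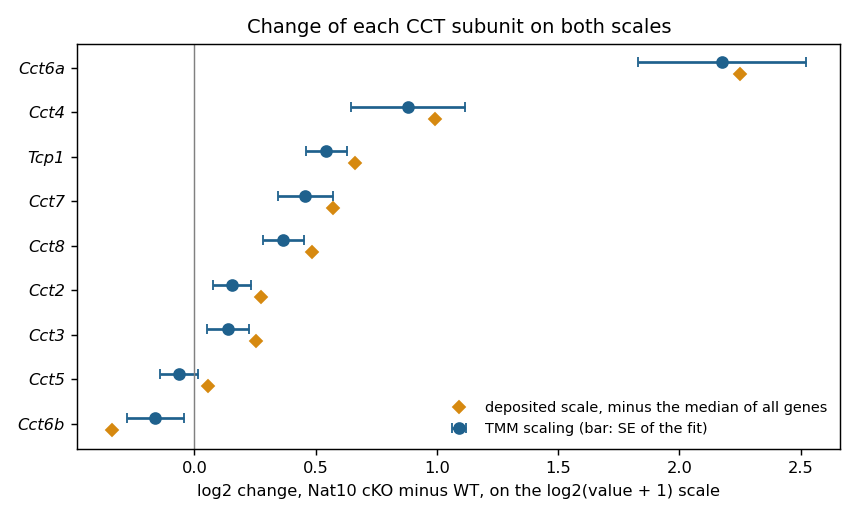
Log2 change of each subunit, Nat10 cKO minus WT, on the log2(value + 1) scale: circles with SE bars under TMM scaling, diamonds on the deposited scale after subtracting the median of all genes. The subunits keep 1 order on both scales, from Cct6a at 2.18 and 2.25 to Cct6b at -0.16 and -0.34. Both scales rest on the same reads, so this order is no separate evidence. The subtracted median does not match the shift of each subunit.

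Levels of different subunits were compared per length, as CPM per kb of the longest coding transcript (for Cct6a the longest processed transcript). Although the proteins occupy equal numbers of places in the ring, their mRNAs spanned a wide range. Cct5 made up 29.0% ± 1.96 of the summed CPM per kb of the 9 genes in Nat10 cKO oocytes and 35.1% ± 1.08 in WT oocytes (SD, n = 3 each). Cct3 made up 19.1% ± 0.817 in Nat10 cKO and 20.2% ± 0.305 in WT oocytes, Cct8 16.9% ± 0.154 and 15.2% ± 0.998, and Cct2 13.5% ± 0.157 and 14.1% ± 0.382, in the same order of genotypes. The share of Tcp1 was 11.5% ± 0.387 in Nat10 cKO and 9.12% ± 0.256 in WT oocytes.

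The low end of the order held Cct4, Cct7, Cct6a and Cct6b. Cct4 made up 4.58% ± 0.709 in Nat10 cKO and 2.97% ± 1.05 in WT oocytes, and Cct7 3.30% ± 0.112 in Nat10 cKO and 2.79% ± 0.430 in WT oocytes. The ranges of Cct4 and Cct7 overlapped in WT oocytes, as did those of Cct8 and Cct2, so neither pair of neighbours was set apart there. The share of Cct6a was 2.09% ± 0.456 in Nat10 cKO and 0.546% ± 0.295 in WT oocytes, and that of Cct6b 0.0147% ± 0.00469 in Nat10 cKO and 0.0263% ± 0.00791 in WT oocytes. Shares within the family do not depend on how libraries are scaled. With the union of all exons as length, Cct5 stayed first but Cct3 moved to the fourth place, with 9.95% in Nat10 cKO and 10.4% in WT oocytes. By that length Cct6a was at 2.38% and Cct7 at 1.99% in Nat10 cKO oocytes, with overlapping ranges and Cct6a below Cct7 in replicate 3. In WT oocytes Cct6a was at 0.619% and Cct7 at 1.68%.

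**Figure D3:**
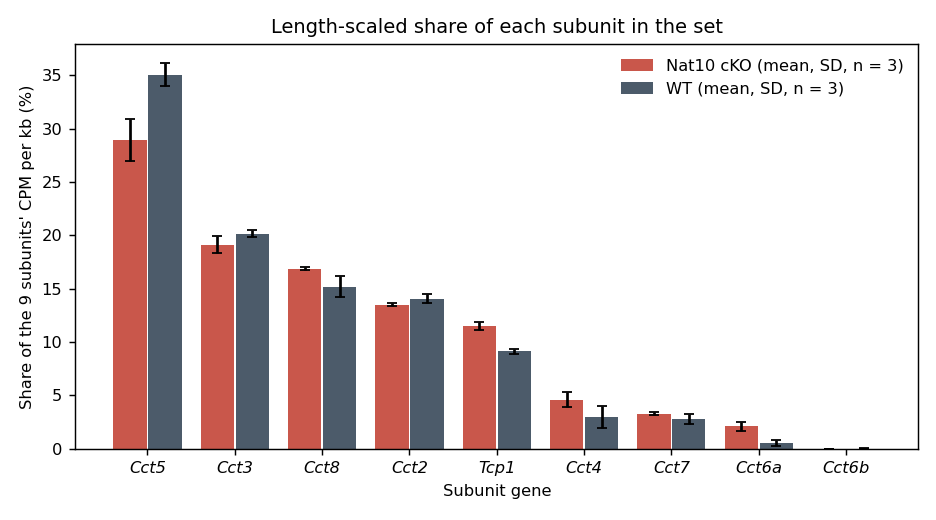
Share of each subunit in the summed CPM per kb of the 9 genes, in percent; bars are means of 3 libraries, Nat10 cKO on the left and WT on the right, with SD. Cct5 takes 29.0% in Nat10 cKO and 35.1% in WT oocytes, and Cct6a 2.09% in Nat10 cKO and 0.546% in WT oocytes.

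Set against the other 7 subunits of the ring in the same library, Cct6a reached 14.9%, 19.3% and 12.3% of their median CPM per kb in Nat10 cKO replicates 1 to 3. In WT replicates 1 to 3 it reached 1.88%, 6.02% and 3.69%. The median of those 7 subunits was 142 ± 4.98 CPM per kb in Nat10 cKO and 127 ± 1.33 CPM per kb in WT libraries (SD, n = 3 each). By transcript length, Cct6a was below those 7 subunits in every library. All 9 genes summed to 2217 ± 110 CPM in Nat10 cKO and 1870 ± 30.1 CPM in WT libraries, and without Cct6a to 2162 ± 95.7 CPM and 1858 ± 31.2 CPM in those groups.

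The subunits also differed in how far libraries of 1 genotype lay apart, a measure that does not use the contrast. Cct6a and Cct4 varied most among the well-expressed subunits. The coefficient of variation of Cct6a was 26.1% over the Nat10 cKO libraries and 54.2% over the WT libraries. The medians over 1957 genes within 0.5 log2 units of its mean level over all 6 libraries were 8.33% and 8.74%. That mean joins 54.2 CPM in Nat10 cKO and 12.1 CPM in WT libraries, so these genes do not match its level within either genotype. That of Cct4 was 19.8% over Nat10 cKO and 35.2% over WT libraries, where 1640 genes of like level had medians of 7.27% and 6.80%. Cct7 had 6.12% in Nat10 cKO and 15.2% in WT libraries. Tcp1, Cct2, Cct3, Cct5 and Cct8 ranged from 2.75% to 8.09% in Nat10 cKO and from 1.08% to 6.57% in WT libraries.

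Cct6a, Cct4 and Cct7 ordered the 6 libraries in the same way, from Nat10 cKO replicate 2 through 1 and 3 to WT replicates 2, 3 and 1. For Cct7 the place of Nat10 cKO replicates 1 and 3 rests on 81.6 against 81.4 CPM. Of all tested genes, 803 (4.38%) had this order, which is 18.1% of the 4431 genes with all Nat10 cKO libraries above all WT libraries. Tcp1, Cct2, Cct3 and Cct8 shared the order of the Nat10 cKO libraries but not that of the WT libraries. The order of Nat10 cKO replicates 2, 1 and 3 was found in 7 of 9 subunits and in 25.8% of tested genes. WT replicate 1, the lowest for Cct6a, Cct4 and Cct7, was also the shallowest library at 33.5 M reads, but WT replicate 2, the highest WT library for these genes, had 34.1 M. The part of depth in these orders was not tested.

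**Figure D4:**
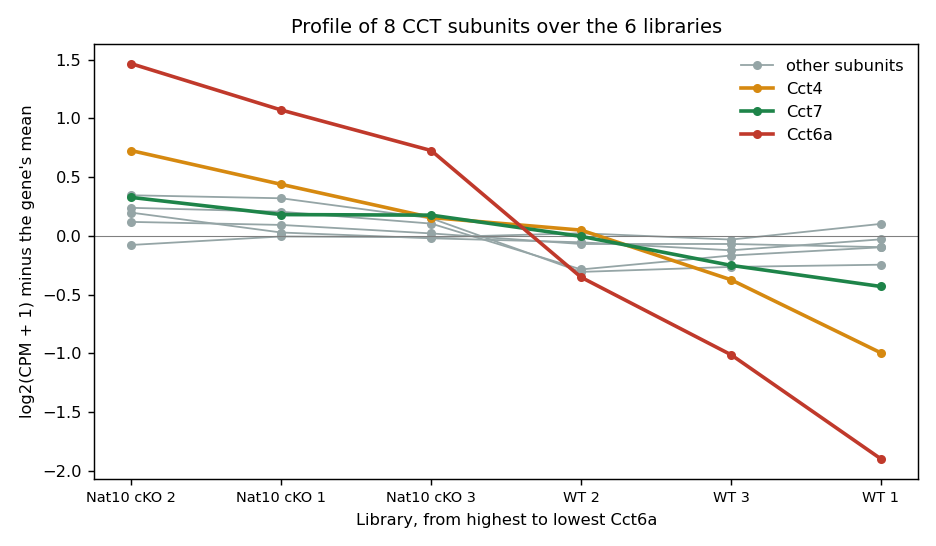
Log2(CPM + 1) of 8 CCT subunits minus each gene's mean, over the 6 libraries ordered by Cct6a, with Nat10 cKO libraries on the left; lines join the values of 1 gene. Cct6a, Cct4 and Cct7 share 1 order of libraries, with Cct7 at 81.6 and 81.4 CPM in Nat10 cKO replicates 1 and 3, and Cct6a and Cct4 span the widest range.

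The genes whose profile over the 6 libraries came closest to that of Cct6a were Xpot, Piwil2, Uqcrc1, Zfp800 and Selenos, by the root mean square difference of centred log2(CPM + 1) values (0.174, 0.185, 0.194, 0.236 and 0.240). Xpot encodes the export receptor for transfer RNA and was at 9.68, 12.8 and 7.93 CPM in Nat10 cKO libraries and at 0.433, 3.79 and 2.50 CPM in WT libraries. Piwil2 encodes a PIWI protein, Uqcrc1 a core protein of respiratory complex III and Selenos a selenoprotein of the endoplasmic reticulum membrane. Among the subunits, Cct4 was nearest to Cct6a, at 0.666 and rank 375 of 18352, followed by Cct7 at 0.935 and rank 1771.

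Other subunits share exon bases with a gene on the opposite strand as well. Tcp1 overlaps Acat3 over 571 bases and Mrpl18 over 141, Cct7 overlaps Pradc1 over 214, and Cct8 overlaps Usp16 over 192. Acat3 had at most 0.886 CPM in any library. Mrpl18 was at 173 ± 8.57 CPM in Nat10 cKO and 179 ± 7.98 CPM in WT libraries (log2 change -0.05, limma adjusted p = 0.708), Pradc1 at 73.1 ± 0.881 and 77.8 ± 1.23 CPM (adjusted p = 0.447) and Usp16 at 226 ± 17.5 and 197 ± 5.61 CPM (adjusted p = 0.0979), each with Nat10 cKO first (SD, n = 3). None of these 4 partners passed the limma threshold. The pseudogenes most like the subunits, Cct3-ps1, Gm11516, Gm15495 and Tcp1-ps1, held at most 0.309 CPM in any library.

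Among genes that feed or assist the chaperonin, calls went in both directions. Of the 6 prefoldin genes, Vbp1 rose and Pfdn4 fell, where 17.4% of all tested genes rose and 17.6% fell. Vbp1 was at 335, 350 and 302 CPM in Nat10 cKO libraries and at 257, 224 and 269 CPM in WT libraries (log2 change 0.40, SE 0.0951, limma adjusted p = 0.00596). Pfdn4 was at 391, 326 and 377 CPM in Nat10 cKO libraries and at 553, 490 and 557 CPM in WT libraries (log2 change -0.55, SE 0.0935, adjusted p = 0.000792). The groups were separate for both genes. Pfdn1, Pfdn2, Pfdn5 and Pfdn6 had log2 changes of -0.07, -0.16, 0.07 and 0.04 and did not pass. The median log2 change was -0.018 over the 6 prefoldin genes, 0.065 over the phosducin-like cofactors and 0.067 over the tubulin folding cofactors, beside 0.00096 over all tested genes.

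Of the 4 phosducin-like cofactors, Pdcl3 fell, to 125 ± 11.3 CPM in Nat10 cKO libraries against 166 ± 12.4 CPM in WT libraries (log2 change -0.41, SE 0.0965, limma adjusted p = 0.00552). Pdcl, Pdcl2 and Txndc9 had log2 changes of 0.21, 0.24 and -0.08 and did not pass. The log2 change of Pdcl was 0.09 without WT replicate 1 and 0.34 without WT replicate 2, where it passed (adjusted p = 0.0429), and that of Pdcl2 was 0.14 without Nat10 cKO replicate 2. Among 6 tubulin folding cofactors, which take over tubulin after CCT releases it, Tbcd rose, to 17.6 ± 2.26 CPM in Nat10 cKO against 11.6 ± 1.44 CPM in WT libraries (log2 change 0.56, SE 0.140, adjusted p = 0.00776). Tbca, Tbcb, Tbcc, Tbce and Tbcel had log2 changes of -0.06, 0.20, -0.02, 0.15 and -0.36 and did not pass. The calls in these lists stand beside 17.4% of all tested genes that rose and 17.6% that fell. On the deposited scale, where library totals were not set equal, Vbp1, Pfdn4, Pdcl3 and Tbcd did not pass (limma adjusted p = 0.260, 0.821, 0.955 and 0.168).

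The other chaperonins were described by 5 tested genes, with a median log2 change of 0.13, and Cct8l1 had no read. Hspd1, the mitochondrial chaperonin, rose by 0.27 (SE 0.0901, limma adjusted p = 0.0336), and its lid Hspe1 had a log2 change of -0.17 and did not pass. Bbs12, one of the chaperonin-like proteins that assemble the BBSome of the cilium with CCT, rose by 0.61 (SE 0.181, adjusted p = 0.0192), while Mkks and Bbs10 had log2 changes of -0.05 and 0.13. The call of Hspd1 was lost in 8 of 14 alternatives and that of Bbs12 in 5. Of the 2 heat shock factors, Hsf1 rose to 83.8 ± 6.64 CPM in Nat10 cKO against 65.3 ± 3.15 CPM in WT libraries (adjusted p = 0.0116, lost without WT replicate 3 and on the deposited scale). Hsf2 was at 41.8, 39.4 and 36.0 CPM in Nat10 cKO libraries and at 10.4, 34.8 and 28.6 CPM in WT libraries, and did not pass (log2 change 0.80, SE 0.356, adjusted p = 0.114). Without WT replicate 1 its log2 change was 0.30. Among all tested genes, 17.4% rose and 17.6% fell.

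**Figure D5:**
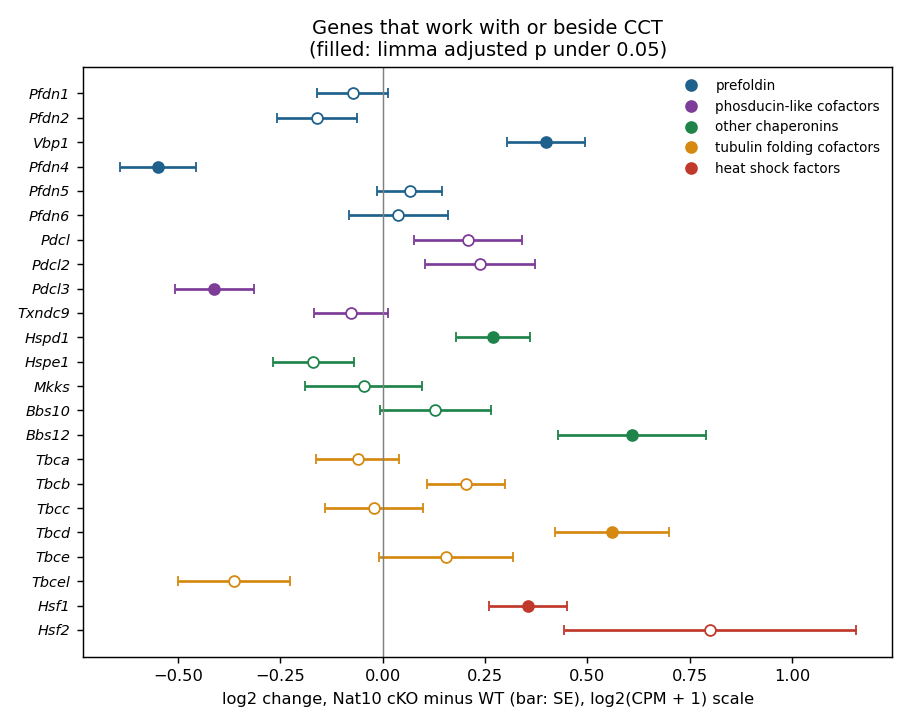
Log2 change, Nat10 cKO minus WT, with SE, of prefoldin genes, phosducin-like cofactors, other chaperonins, tubulin folding cofactors and heat shock factors; filled points passed the limma threshold. Vbp1 at 0.40 and Pfdn4 at -0.55 lie on opposite sides of 0, and Hsf2, which did not pass, has the widest bar.

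Of 28 tested genes for known clients of CCT, 11 rose and 2 fell, where 17.4% of all tested genes rose and 17.6% fell. The median log2 change of the clients was 0.14, beside 0.00096 over all tested genes. Actb, which encodes beta-actin, was at 203, 209 and 187 CPM in Nat10 cKO libraries and at 114, 132 and 139 CPM in WT libraries (log2 change 0.64, SE 0.0962, limma adjusted p = 0.000361). Ccne1, the cyclin E1 gene, was at 23.6, 34.6 and 18.2 CPM in Nat10 cKO libraries and at 6.37, 11.5 and 8.12 CPM in WT libraries (log2 change 1.44, SE 0.220, adjusted p = 0.000385). Wrap53 encodes a telomerase factor built from WD40 repeats, and Vhl is the von Hippel-Lindau tumour suppressor gene. They rose by 1.00 and 1.21 on the log2(CPM + 1) scale (limma adjusted p = 0.000638 and 0.000686). Wrap53 was at 2.62, 3.32 and 1.99 CPM in Nat10 cKO libraries. In WT libraries it was at 0.804, 0.747 and 0.871 CPM, from 26, 26 and 56 reads. Vhl was at 5.48, 7.90 and 6.06 CPM in Nat10 cKO and 1.92, 3.33 and 1.62 CPM in WT libraries. At levels this low the added 1 shrinks the changes, so Wrap53 and Vhl are not ranked by them. Groups did not overlap for Actb, Ccne1, Wrap53 or Vhl. The calls of Ccne1, Wrap53 and Vhl held on the deposited scale, whereas that of Actb was lost (limma adjusted p = 0.106). The 2 clients that fell were Tubb3 (log2 change -0.42, limma adjusted p = 0.00384) and Gnb2 (log2 change -0.57, limma adjusted p = 0.0164). Both of these calls were lost on the deposited scale (limma adjusted p = 0.948 and 0.779). Apart from Tubb3, the tested alpha- and beta-tubulin genes did not pass, with log2 changes from -0.17 (Tubb4a) to 0.23 (Tuba1b). Of the gamma-tubulin genes, Tubg1 rose (log2 change 0.46, limma adjusted p = 0.00615, lost on the deposited scale) and Tubg2 did not pass.

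Over the 5 short lists and the clients together, 16 of 51 tested genes rose and 4 fell under TMM scaling, against 5 and 0 on the deposited scale. Of all tested genes, 17.4% rose and 17.6% fell under TMM scaling, against 6.58% and 1.39% on the deposited scale, so calls were fewer there across the whole table too. On that scale limma gave 0 falls also at an unadjusted p under 0.05. On the recovered reads, edgeR and DESeq2 each gave 4 falls.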

How the data were processed

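Per the submitters' processing notes, reads were processed with Trim Galore 0.6.7, STAR 2.7.10a, featureCounts and mm10; no source used here gives their settings, the strand rule or the treatment of shared reads. In the deposited table, the column of WT replicate 1 holds whole read counts, and the other 5 columns hold a scaled signal, counts multiplied by 1 factor per library (1.38 and 0.945 for WT replicates 2 and 3; 0.920, 0.908 and 0.932 for Nat10 cKO replicates 1 to 3). Division by the smallest value above 0 gave whole reads for 100% of values, within 0.001. How the factors were made, and whether they rest on the ERCC spike-in, is not stated.

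Genes were kept by filterByExpr with a minimum count of 10, and log2(TMM-scaled CPM + 1) was tested across all genes with limma (trended, robust), two-sided, with Benjamini-Hochberg adjustment at 0.05. Alternatives were median-of-ratios factors, library sizes only, the deposited scale, no filter, a pseudocount of 0.1, edgeR and DESeq2 on the recovered reads, the replicate number as a block, exon-union lengths, and leaving out each library. The test was checked on simulated data. Genes of like level were those within 0.5 log2 units of a subunit's mean CPM over all 6 libraries. The members, lists and tests were chosen with earlier results of these data known. Genes named were Nat10, the subunits, genes sharing exons with a subunit and members of lists of up to 6 genes. From longer lists they were the 4 smallest p-values (and, for markers, the 2 most abundant), with the 2 clients that fell and tubulin genes. The 5 profiles nearest to Cct6a were named as well, and the marker lists are given by sums and counts. Near copies were transcripts at least 85% identical over at least 50% of the length. Software was limma 3.58.1, DESeq2 1.42.0 and edgeR 4.0.16 under R 4.3.3, with BLAST 2.17.0 and Python 3.11.15.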

Additional observations from a re-analysis of the deposited data

How the results depend on the processing

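Under TMM scaling, 3190 genes were higher and 3232 lower in Nat10 cKO oocytes; on the deposited scale, the numbers were 1207 and 255. With 1 library left out, 2108 to 3431 genes were higher and 2201 to 3334 lower; both lowest counts were without WT replicate 3. The subunits past the threshold numbered 5 under TMM scaling, 2 on the deposited scale, and 4 to 5 with 1 library left out. The companion genes had 16 rises and 4 falls, against 5 and 0 on the deposited scale, and 11 to 20 rises and 3 to 5 falls with 1 library left out. The cause of these differences was not tested. Each of the 9 subunits kept the sign of its change in the 14 alternatives, except Cct5 on the deposited scale, and the log2 change of Cct6a ranged from 1.77 to 2.55. With the replicate number as a block, 3070 genes were higher, 3164 lower and 5 subunits past the threshold; the deviations of same-numbered libraries correlated at 0.079, 0.075 and -0.12, so the numbers are not taken as a pairing. Cct6b, at 10 to 36 reads, is limited by depth.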
